A study of Mus musculus with 5 samples.

Results

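Txnip, its relatives Arrdc1, Arrdc2, Arrdc3 and Arrdc4, and the transcription factor genes Mlxip and Mlxipl were followed in mouse melanoma cells with and without a constitutively active MNK1 kinase. These 7 genes were taken by symbol from 46959 gene symbols in the deposited counts. They were selected on their biology and on measured differences between the cells compared here, so their caMNK and pBABE values are a description and carry no test. The cells were D4M.3A, a melanoma line from C57BL/6 mice with mutant Braf, at passages 7 to 12. The caMNK cells carried the constitutively active MNK1 (n = 3 libraries), and the pBABE cells served as control and carried the retroviral vector pBABE (n = 2 libraries). MNK1 phosphorylates the cap-binding translation factor eIF4E. The labels do not say whether either line is a clone or a pool. Per the series text the replicates are biological, but the cultures are not described, so spread and p-values measure the variation between these 5 libraries. Each group is a separate line, so the effect of the kinase cannot be told apart from any other way in which the lines differ.

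Alpha-arrestins are adaptor proteins that bring NEDD4-family ubiquitin ligases to membrane proteins and so direct their uptake and sorting. TXNIP, the thioredoxin-interacting protein, binds thioredoxin and lowers glucose uptake through the transporter GLUT1, and its relative ARRDC4 also lowers glucose uptake. Mlxip encodes MondoA and Mlxipl encodes ChREBP, which pair with MLX, sense glucose phosphates and activate Txnip and Arrdc4 through the carbohydrate response element (ChoRE), a pair of E-box-like parts.

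The sequences before Txnip and Arrdc4 are shown because both genes are known targets of MondoA in mammalian cells and had the highest caMNK to pBABE ratios of the set. Each is the 250 bases before the RefSeq start site on build GRCm38.p6, on the strand of the gene. Capitals mark the ChoRE match in Txnip, from chr3:96557707-96557956 on the plus strand, and the E-box CACGTG in Arrdc4, from chr7:68749239-68749488 on the minus strand.
Txnip: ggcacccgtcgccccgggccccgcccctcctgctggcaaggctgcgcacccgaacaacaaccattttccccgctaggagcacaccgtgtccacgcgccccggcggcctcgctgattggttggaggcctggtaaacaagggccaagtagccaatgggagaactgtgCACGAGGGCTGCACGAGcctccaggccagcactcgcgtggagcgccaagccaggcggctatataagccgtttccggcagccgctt
Arrdc4: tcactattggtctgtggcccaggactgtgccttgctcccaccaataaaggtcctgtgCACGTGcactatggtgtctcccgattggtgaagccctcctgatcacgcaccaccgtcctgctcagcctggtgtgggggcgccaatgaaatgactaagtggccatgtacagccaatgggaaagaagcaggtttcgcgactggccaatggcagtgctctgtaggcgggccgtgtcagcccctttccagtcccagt

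The ChoRE consensus was searched on both strands with 5 bases between the parts and up to 1 mismatch, in windows of 250 bases before to 50 after each start. The Txnip match, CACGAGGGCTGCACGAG, had 1 mismatch and lay at -85 to -69 from the start. It was the only ChoRE match among the 10 RefSeq promoters of the 7 genes, whereas 2.36% of 32851 mouse promoters held one. The E-box CACGTG was found at -193 to -188 from the Arrdc4 start and at -98 to -93 from the Mlxipl start, and in 7.15% of all promoters. The CCAAT box was found in 7 of the 10 promoters, against 37.4% of all, and occurred 6 times before Arrdc4. Overlapping windows of Arrdc3 held the same box. By gene, the CCAAT box was found in 6 of 7, against 41.1% of all genes. The FOXO core TGTTTAC was found once, on the reverse strand before Txnip, and in 3.65% of all promoters. None of these motifs overlapped another in the Txnip or Arrdc4 windows, and a match describes letters and not a bound site.

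Library totals ran between 27827199 and 48794336 counts in caMNK and were 42730166 and 32963884 in pBABE. Levels are in CPM, the read counts of a gene brought to a common library total, and folds are log2 caMNK over pBABE from edgeR's quasi-likelihood fit, with their standard error (SE). A gene was called at a Benjamini-Hochberg adjusted p below 0.05 over 17026 tested genes. Of the melanocyte markers, Tyrp1, Dct and Slc45a2 were at 0 in all 5 libraries. The summed level of 10 such markers, mostly Mitf, was 4.95 to 6.87 CPM in caMNK and 6.31 to 6.54 CPM in pBABE. Summed mitochondrial mRNAs were at 18770 to 21670 CPM in caMNK and 12290 to 13530 CPM in pBABE, with 6 of 10 tested called higher. That sum holds almost nothing of mt-Co2, mt-Co3, mt-Atp6 and mt-Atp8, each at 2.17 CPM or less in every library, for a reason that was not tested. Summed nuclear non-coding RNAs were at 776 to 1062 CPM in caMNK and 520 to 536 CPM in pBABE, with 3 of 5 tested called higher. Summed macrophage markers were mostly Csf1r, which shares reads with Hmgxb3. They were at 13.9 to 19.2 CPM in caMNK and 13.6 to 16.0 CPM in pBABE, with none of 3 tested called. Summed fibroblast markers, mostly Col3a1, were at 533 to 759 CPM in caMNK and 707 to 748 CPM in pBABE, and of 4 tested Fap was called higher, at 2.19 CPM in caMNK and 0.840 CPM in pBABE. Summed endothelial markers, mostly Cdh5, were at 3.57 to 3.70 CPM in caMNK and 5.47 to 9.51 CPM in pBABE. Of 3 tested, Cdh5 was called lower, at 2.52 CPM in caMNK and 6.85 CPM in pBABE. Pecam1 and Tek, the other tested markers, averaged higher in caMNK and were not called. They were at 0.455 and 0.566 CPM in caMNK and 0.220 and 0.321 CPM in pBABE. The part of these RNA classes and markers in the results was not tested.

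The caMNK libraries held more Arrdc4 and Arrdc3 RNA than the pBABE libraries and more reads at the Txnip locus, which an antisense gene shares, and Arrdc1, Arrdc2, Mlxip and Mlxipl overlapped between the groups. Txnip averaged about 4.06 times its pBABE level and Arrdc3 about 1.47 times. Of 7 genes, 6 passed the filter on low counts. Txnip and Arrdc3, 2 of the 6, were called higher and 0 were called lower, where 4.42% of all tested genes were called higher and 3.52% lower. In 3 of the 7 every caMNK library lay above both pBABE libraries, as did 22.3% of all tested genes. Nothing is read from these counts, since the genes were chosen with this contrast known. In these bulk libraries, more cells with an RNA and more RNA per cell cannot be told apart.

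**Figure D1:**
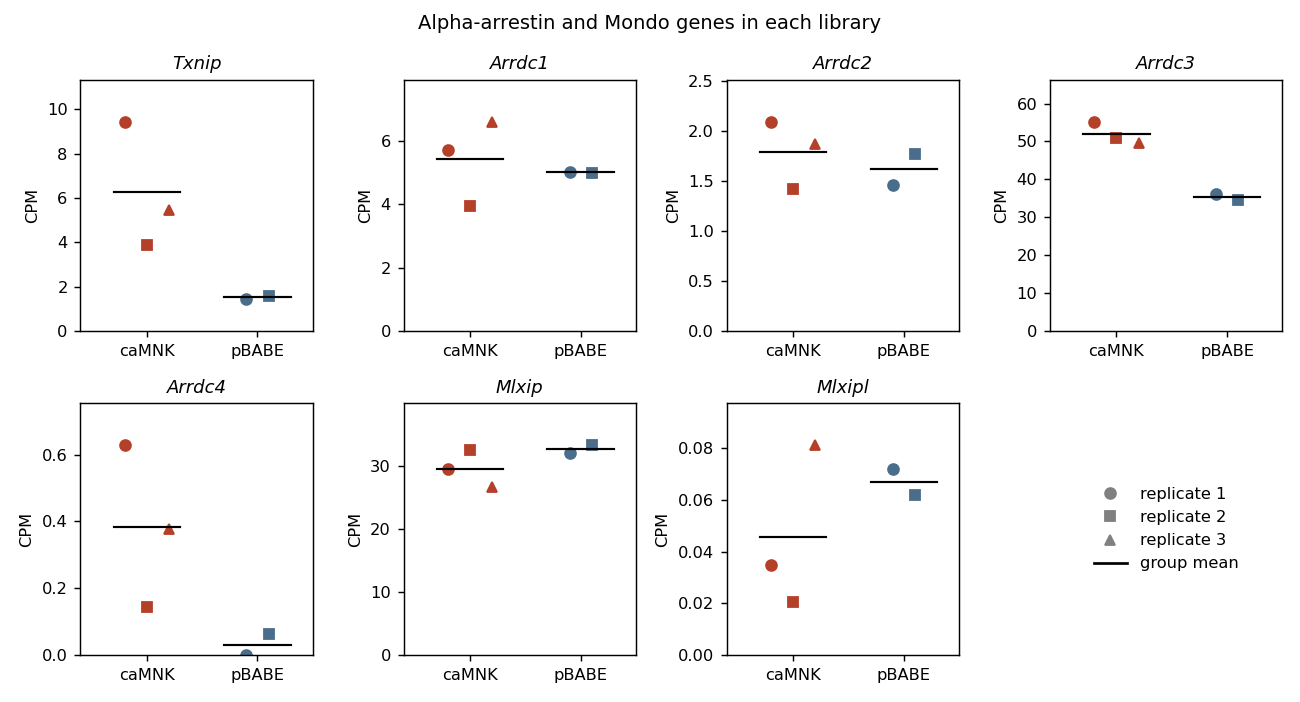
Level of each gene in CPM (vertical axis, from 0, a separate scale for each gene) in caMNK and pBABE libraries, with 1 point for each library and a line at the group mean. For Txnip, Arrdc3 and Arrdc4 the 3 caMNK points lie above both pBABE points, and for the other genes the groups overlap.

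Txnip (ENSMUSG00000038393, chr3:96557957-96561883, plus strand, mm10) had 9.45, 3.87 and 5.49 CPM in caMNK replicates 1 to 3, from 271, 188 and 203 counts. In pBABE replicates 1 and 2 it had 1.46 and 1.58 CPM, from 61 and 51 counts. All caMNK libraries were higher than both pBABE libraries, with caMNK replicate 1 at 2.44 times caMNK replicate 2. The group means were 6.27 ± 2.87 CPM in caMNK (SD, n = 3) and 1.52 ± 0.0828 CPM in pBABE (SD, n = 2). The log2 fold change was 2.02 (SE 0.38), and 113 of the tested genes had a larger one, including the antisense gene counted from the same reads. The lowest caMNK value was that of replicate 2. That library was also the lowest caMNK library for the nuclear RNA Malat1, which shares reads with Gm37376, at 486, 259 and 432 CPM in caMNK replicates 1 to 3 and 169 and 169 CPM in pBABE. Of the other tested non-coding RNAs of that list, Neat1 and Gas5 were also lowest within caMNK in replicate 2. Kcnq1ot1 and Tug1, which share reads with Kcnq1 and Morc2a, were highest there, at 15.1 and 126 CPM. The part of this variation in the Txnip level was not tested.

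Counts at the Txnip locus cannot be assigned to a strand. The antisense long non-coding RNA gene Gm15441 (chr3:96555765-96566801, minus strand) spans the whole Txnip gene. Its product is known to lower Txnip RNA in mouse liver. It had 272, 188 and 203 counts in caMNK replicates 1 to 3 and 61 and 51 counts in pBABE replicates 1 and 2. Txnip and Gm15441 thus had the same count in 4 libraries and differed by 1 count in the other. A net 1 count distinguished them although 7110 bp of the Gm15441 span, with 1070 of its 1676 exon bases, lie outside the Txnip span. All reads within the 3927 bp of Txnip appear in both counts, so the Gm15441 exons outside Txnip were almost without reads. The difference between caMNK and pBABE thus lay in reads within the Txnip span. The strand of those reads, and so their split between the RNAs, was not measured. None of the other genes had such an overlap: the most counts were those of Gm15747, antisense to Mlxip, at 1.72% of the Mlxip total, and 1700023H06Rik within Arrdc3 had 0.235% of the Arrdc3 total. Gm42907, Gm42908 and Gm43813 within Mlxip had 6, 1 and 11 counts over all libraries, and Gm43500 within Mlxipl had 0.

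**Figure D2:**
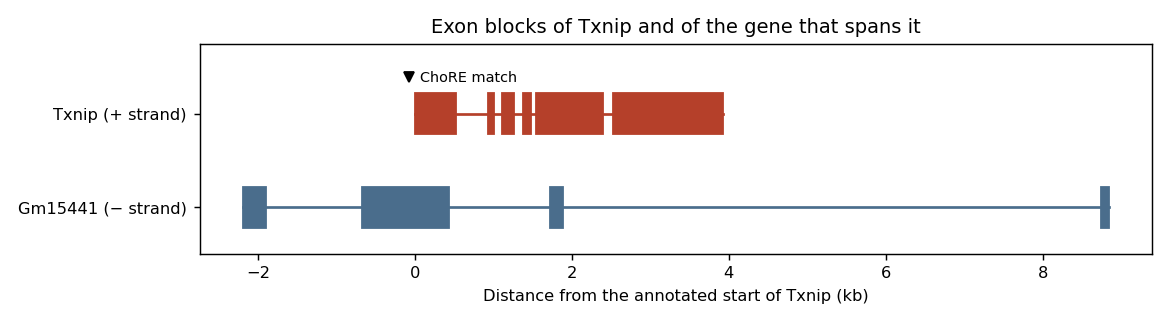
Exon blocks (boxes) and introns (lines) of Txnip and Gm15441 by distance from the annotated Txnip start in kb (horizontal axis), with the position of the ChoRE match. Gm15441 runs beyond both ends of Txnip, and 606 of its exon bases overlap Txnip exons.

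Arrdc4 (ENSMUSG00000042659, chr7:68736995-68749241, minus strand) was close to the detection limit. It had 18, 7 and 14 counts in caMNK replicates 1 to 3 and 0 and 2 counts in pBABE replicates 1 and 2. On the CPM scale it was at 0.628, 0.144 and 0.378 in caMNK and at 0 and 0.0620 in pBABE. The groups did not overlap, and caMNK replicate 2 was again the lowest of its group, by 4.36 times against replicate 1. The 39 caMNK counts against 2 pBABE counts gave a ratio of 12.6 after scaling for depth, with a 95% exact counting interval of 3.27 to 108. That interval covers counting error only, over counts pooled within each group, and leaves out the variation between libraries. It is no test, since Arrdc4 was chosen on this contrast. Arrdc4 passed the filter on low counts through the caMNK libraries alone and was not called. Its fitted log2 fold change of 3.55 (SE 1.07) depends on the prior count. The call changed with the setting: Arrdc4 was called without that filter, with a replicate block and without caMNK replicate 2. Without caMNK replicate 1 or 3 it did not pass the filter. A count of 0 in pBABE replicate 1 allows up to 0.0720 CPM.

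Arrdc3 (ENSMUSG00000074794, chr13:80883384-80896042, plus strand) encodes an adaptor known for sorting the beta-2 adrenergic receptor and for limiting integrin beta-4 at the surface of human breast cancer cells. It had 55.2, 50.8 and 49.5 CPM in caMNK replicates 1 to 3 and 36.0 and 34.6 CPM in pBABE replicates 1 and 2. The lowest caMNK library was above the highest pBABE library, and the caMNK libraries differed by no more than 1.12 times. The means were 51.9 ± 2.99 CPM in caMNK (SD, n = 3) and 35.3 ± 1.05 CPM in pBABE (SD, n = 2). The log2 fold change was 0.55 (SE 0.09), and 1943 tested genes had a larger one. With 1115 to 2471 counts in each library, Arrdc3 was the most deeply counted of the arrestin genes.

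Arrdc1 (ENSMUSG00000026972, chr2:24925352-24935252, minus strand) encodes the arrestin that recruits the ESCRT protein TSG101 to the plasma membrane and buds vesicles. It had 5.72, 3.93 and 6.59 CPM in caMNK replicates 1 to 3 and 5.01 and 4.99 CPM in pBABE replicates 1 and 2. Both pBABE values lay inside the caMNK range. The log2 fold change was 0.10 (SE 0.22).

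Arrdc2 (ENSMUSG00000002910, chr8:70835129-70839720, minus strand), the relative whose cargo is less well described, had 2.09, 1.42 and 1.86 CPM in caMNK replicates 1 to 3 and 1.46 and 1.77 CPM in pBABE replicates 1 and 2. The groups overlapped, caMNK replicate 2 being the lowest of all 5 libraries. The log2 fold change was 0.14 (SE 0.24), from 57 to 69 counts in each library.

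Mlxip (ENSMUSG00000038342, chr5:123394798-123457932, plus strand), the MondoA gene, had 29.6, 32.5 and 26.7 CPM in caMNK replicates 1 to 3 and 32.0 and 33.3 CPM in pBABE replicates 1 and 2. The caMNK replicate 2 value lay between the pBABE values, and the other caMNK values were lower. The means were 29.6 ± 2.91 CPM in caMNK (SD, n = 3) and 32.7 ± 0.910 CPM in pBABE (SD, n = 2), with a log2 fold change of -0.14 (SE 0.11). Mlxipl (ENSMUSG00000005373, chr5:135089890-135138382, plus strand), the ChREBP gene, had 1, 1 and 3 counts in caMNK and 3 and 2 counts in pBABE. It was not tested, and no fold is given because each library was at or under 3 counts. Mlx, the dimer partner of both proteins, averaged 21.4 ± 0.555 CPM in caMNK (SD, n = 3) and 18.0 ± 0.699 CPM in pBABE (SD, n = 2). Its log2 fold change was 0.25 with an edgeR adjusted p of 0.147, and Mlx shares reads with Psmc3ip.

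**Figure D3:**
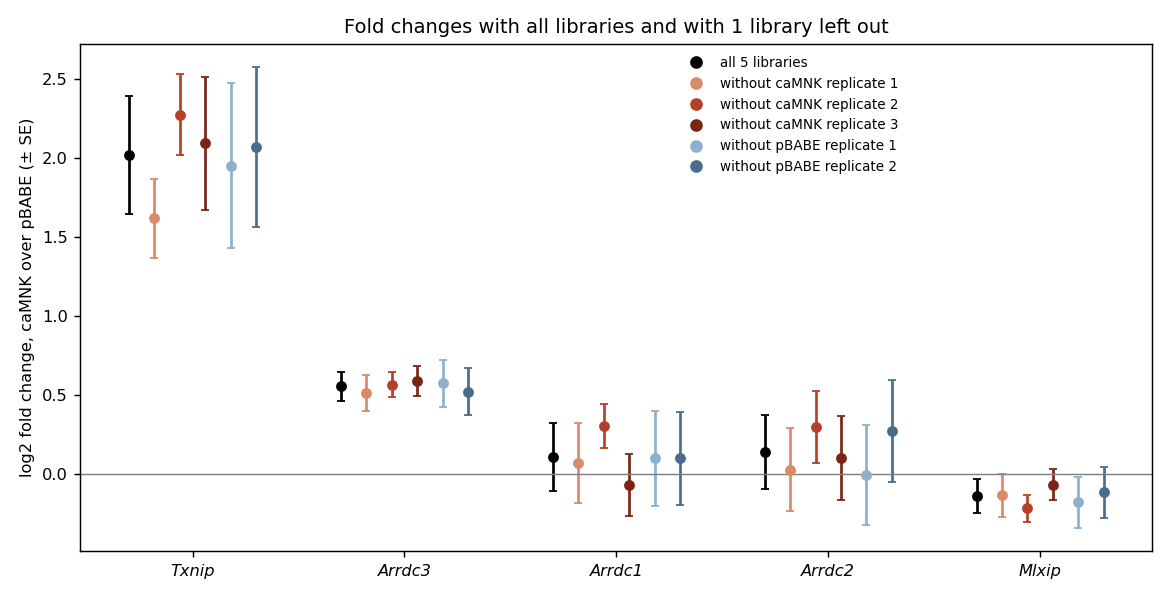
Log2 fold change, caMNK over pBABE (vertical axis), with its SE as bars, for 5 genes from all libraries and with each library left out. Txnip stays between 1.62 and 2.28 and Arrdc3 between 0.51 and 0.59, while Arrdc1 and Arrdc2 fall on both sides of 0. Arrdc4 is not drawn because pBABE replicate 1 had no count.

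The values depended on single libraries to the following extent, given as a description of genes chosen on this contrast. Txnip had a log2 fold change of 1.62 without caMNK replicate 1 and 2.28 without caMNK replicate 2. The calls of Txnip and Arrdc3 were lost without either pBABE library, where 1 control library is left and is assumed to vary like the caMNK libraries, and that of Arrdc3 was lost without caMNK replicate 1.

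Levels were compared between genes per kilobase. The deposited lengths equalled the genomic span, introns included, for 37371 of 44217 matched genes. Per kilobase of span, Arrdc3 was the highest, at 4.10 ± 0.236 CPM in caMNK (SD, n = 3) and 2.79 ± 0.0827 CPM in pBABE (SD, n = 2). Txnip was next in caMNK, at 1.60 ± 0.731 CPM per kb. In pBABE it was at 0.388 ± 0.0211 CPM per kb, after Mlxip at 0.517 ± 0.0144 and Arrdc1 at 0.505 ± 0.00176 CPM per kb. In caMNK, Arrdc1, Mlxip and Arrdc2 stood at 0.547, 0.469 and 0.392 CPM per kb, and their libraries overlapped. Txnip and Arrdc2, which was at 0.354 CPM per kb, overlapped in pBABE, and Arrdc4 was at 0.0314 CPM per kb in caMNK and 0.00254 in pBABE.

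Per kilobase of summed exons the order changed. The deposited lengths point to counts over whole spans, so reads in introns stay in these values. Dividing by exons alone then raises genes with long introns, such as Mlxip. Mlxip, with 8326 exon bases in a span of 63135 bp, then stood second to Arrdc3, at 3.55 CPM per kb in caMNK and 3.92 in pBABE. Txnip was at 2.01 CPM per kb in caMNK, beside Arrdc1 at 2.16, and at 0.487 in pBABE, beside Arrdc2 at 0.500. Arrdc3 was the highest on both scales, at 8.28 CPM per kb of exon in caMNK and 5.63 in pBABE.

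**Figure D4:**
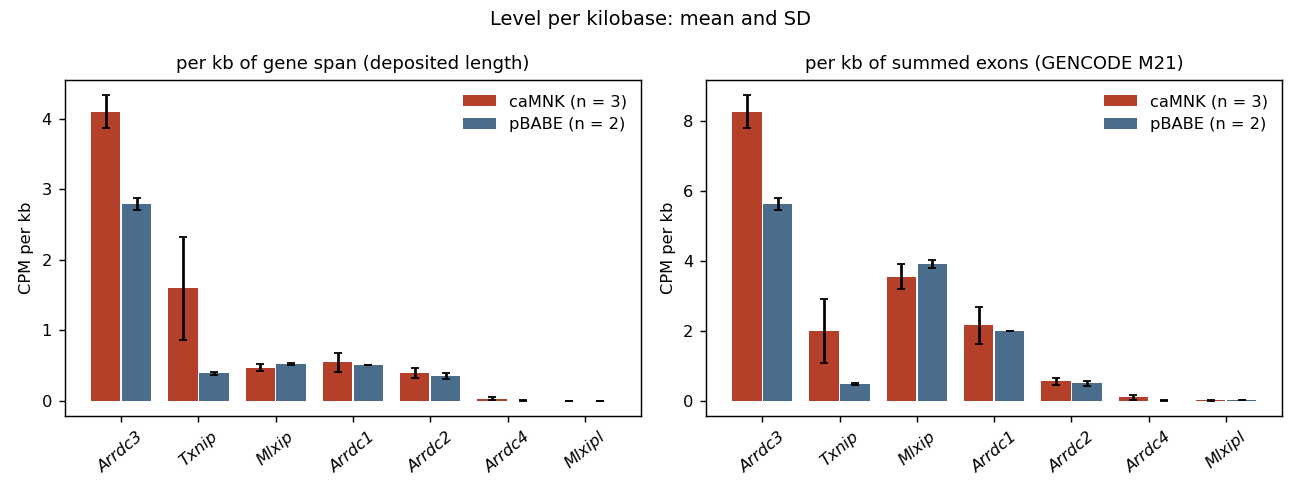
Mean level in CPM per kb (vertical axes, from 0) with SD, in caMNK (n = 3) and pBABE (n = 2), per kb of gene span at left and per kb of summed exons at right. Arrdc3 is the highest on both scales, and Txnip and Mlxip change places between the scales in caMNK.

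Genes with profiles most like Txnip over the 5 libraries were ranked by the root mean square distance between centred log2 CPM values, among 9382 candidates. The nearest was Krt20, an intermediate filament keratin, at a distance of 0.294, with 40.7, 29.8 and 40.6 CPM in caMNK replicates 1 to 3 and 9.40 and 9.51 CPM in pBABE replicates 1 and 2. Nrcam, a neuronal cell adhesion molecule, followed at 0.304, with 24.5, 17.5 and 22.8 CPM in caMNK and 5.25 and 7.41 CPM in pBABE. Aim2, a cytosolic DNA sensor that shares reads with Cadm3, came after these at 0.360, with 16.9, 12.8 and 16.7 CPM in caMNK and 5.42 and 5.24 CPM in pBABE. All of these were lowest within caMNK in replicate 2, as Txnip was, and they were picked for this likeness.

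Around these genes, 10 lists of partners, cargo and known targets held 121 tested genes, of which 2 were called higher and 7 lower. That was 1.65% higher and 5.79% lower, against 4.42% and 3.52% of all tested genes, and the median log2 fold change was -0.06, against 0.00 for all. All 9 calls were lost without caMNK replicate 1 or without either pBABE library, and without caMNK replicate 2 there were 19 higher and 29 lower. That was 15.7% and 24.0% of the 121, in a fit that called 13.9% of all 16675 tested genes higher and 15.7% lower.

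In the thioredoxin system, 1 of 17 tested genes was called higher and none lower. It was Prdx1, a peroxiredoxin that removes peroxides with thioredoxin, at 696 ± 35.9 CPM in caMNK (SD, n = 3) and 551 ± 6.34 CPM in pBABE (SD, n = 2), with a log2 fold change of 0.34 and an edgeR adjusted p of 0.0485. Its call was lost without caMNK replicate 3. Thioredoxin itself, Txn1, had a log2 fold change of -0.11 with an edgeR adjusted p of 0.564. Txndc5 and Prdx3 were at log2 fold changes of -0.28 and -0.36 with edgeR adjusted p of 0.0712 and 0.139.

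None of 12 tested genes of glucose uptake and phosphorylation was called in either direction. The GLUT1 gene Slc2a1, the transporter that TXNIP acts on, had a log2 fold change of -0.33 with an edgeR adjusted p of 0.177 and shares reads with Gm12868. Hexokinase 2, Hk2, was at 40.7 ± 4.30 CPM in caMNK (SD, n = 3) and 53.4 ± 2.60 CPM in pBABE (SD, n = 2), with a log2 fold change of -0.39 and an edgeR adjusted p of 0.0621. The transporter genes Slc2a6 and Slc2a13 were at log2 fold changes of -1.04 and 0.50 with edgeR adjusted p of 0.0629 and 0.112.

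Among MondoA and MAX network partners, 1 of 10 was called higher and none lower. Myc, which like MondoA and MLX belongs to the network of E-box binding factors, was at 61.0 ± 4.11 CPM in caMNK (SD, n = 3) and 46.8 ± 1.29 CPM in pBABE (SD, n = 2), with a log2 fold change of 0.38 and an edgeR adjusted p of 0.0417. Mycl was at a log2 fold change of 0.54 with an edgeR adjusted p of 0.0556, and the MYC antagonist gene Mxi1, which shares reads with Gm10197, at -0.39 with 0.0532. The list median was 0.21.

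Of 15 tested genes described as ChREBP targets in liver, 3 were called lower and none higher, with a list median of -0.20. Scd1, the stearoyl-CoA desaturase, was at 121 ± 14.9 CPM in caMNK (SD, n = 3) and 175 ± 14.3 CPM in pBABE (SD, n = 2), with a log2 fold change of -0.53 and an edgeR adjusted p of 0.0309. Acaca, the acetyl-CoA carboxylase of fatty acid synthesis, fell by 0.48 on the log2 scale with an edgeR adjusted p of 0.0459. Mid1ip1, an activator of that carboxylase, fell by 0.35 with an edgeR adjusted p of 0.0430 and shares reads with Gm14493. The call for Acaca was lost with a filter of 1 CPM and with genes that share reads left out, and that for Mid1ip1 with total-count scaling.

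The NEDD4-family ligases and adaptors, which alpha-arrestins recruit, had 1 of 10 called lower and none higher. Smurf2, a ligase of TGF-beta signalling, was at 73.8 ± 8.80 CPM in caMNK (SD, n = 3) and 103 ± 2.15 CPM in pBABE (SD, n = 2), with a log2 fold change of -0.48 and an edgeR adjusted p of 0.0338. Nedd4 had a log2 fold change of -0.29 with an edgeR adjusted p of 0.0918, and the adaptor Ndfip1 0.14 with 0.384. None of 14 tested ESCRT genes was called, including Tsg101, the partner of ARRDC1, at a log2 fold change of 0.31 with an edgeR adjusted p of 0.104. Mvb12b and Vps37b were at -0.27 and 0.27 with edgeR adjusted p of 0.0938 and 0.226, and Vps37b shares reads with Hip1r and Gm37939. None of 7 other arrestin-fold genes was called, and Vps26b, Sag and Arrb2 had log2 fold changes of -0.19, 0.52 and -0.16 with edgeR adjusted p of 0.176, 0.428 and 0.479.

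Of 9 tested cargo genes, Itga6 was called lower and none was called higher. Itga6, the integrin alpha-6 subunit that pairs with integrin beta-4, was at 340 ± 33.6 CPM in caMNK (SD, n = 3) and 476 ± 2.12 CPM in pBABE (SD, n = 2), with a log2 fold change of -0.48 and an edgeR adjusted p of 0.0246. Itgb4 itself was at 1.22 CPM in caMNK and 0.685 CPM in pBABE, with a log2 fold change of 0.83 and an edgeR adjusted p of 0.0861, and shares reads with B230344G16Rik. Notch1, which shares reads with 0610009E02Rik, was at a log2 fold change of -0.37 with an edgeR adjusted p of 0.0589.

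Glucocorticoid and FOXO response genes, among which Txnip is often counted, had 2 of 18 called lower and none higher. Irs2, the insulin receptor substrate and a FOXO target, was at 10.7 ± 1.51 CPM in caMNK (SD, n = 3) and 17.1 ± 0.00594 CPM in pBABE (SD, n = 2), with a log2 fold change of -0.67 and an edgeR adjusted p of 0.0218, and shares reads with 9530052E02Rik. Fkbp5, a chaperone induced by glucocorticoids, fell by 0.39 on the log2 scale with an edgeR adjusted p of 0.0432, a call lost with total-count scaling, with genes that share reads left out and without caMNK replicate 3. Pik3ip1, which shares reads with Gm12592, was at 0.54 with an edgeR adjusted p of 0.0552. None of 9 AMPK and NLRP3 genes was called. Prkaa2, Prkab2 and Casp1 had log2 fold changes of -0.59, 0.43 and 0.35 with edgeR adjusted p of 0.0760, 0.0875 and 0.187, and Prkab2 shares reads with Gm17651.

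**Figure D5:**
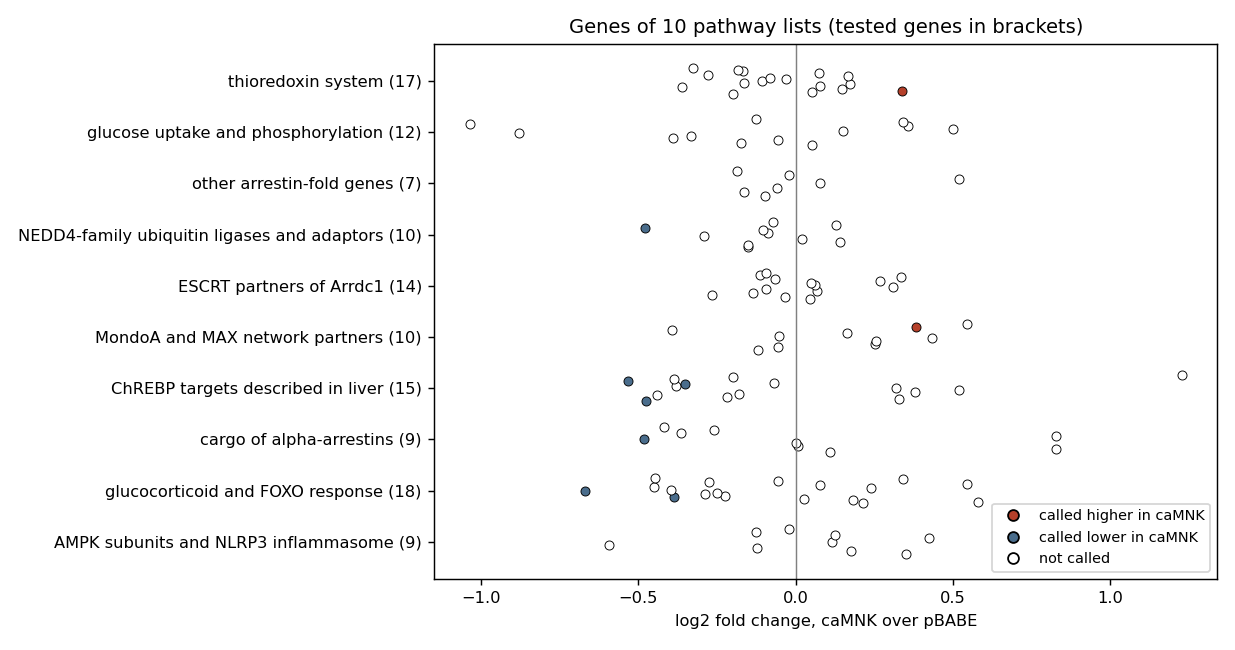
Log2 fold change, caMNK over pBABE (horizontal axis), of each tested gene in 10 lists (vertical axis, number tested in brackets), with called genes filled. Of 121 genes, 2 were called higher and 7 lower in caMNK.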

How the data were processed

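Total RNA of 5 libraries was prepared with a TruSeq Stranded Total RNA kit, per the labels' protocols. The deposited values are raw read counts per gene beside a gene length. The authors named featureCounts 1.5.3, STAR 2.5.3, Trimmomatic 0.32, DESeq2, SAMtools 0.1.19, FastQC 0.11.2 and build mm10, per the submitters' processing notes. Which annotation and which strand setting they counted with is not given in the sources used here. Txnip and Gm15441 lie on opposite strands and had nearly the same counts, so reads there were counted without regard to strand. Checked against GENCODE M21, among 27847 genes of more than 1 exon block the deposited length equalled the span for 21711 and the summed exons for 3. Reads in overlapping genes were counted for each, and 14346 genes had an overlapping gene with counts of 10% or more of their own, which is what sharing reads means here.

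Counts were tested with edgeR 4.0.16 in R 4.3.3: filterByExpr, TMM scaling, robust quasi-likelihood F test on group, Benjamini-Hochberg adjustment over 17026 genes. CPM values use TMM-scaled totals. Dividing the absolute log2 fold change by the square root of F gave the SE. limma 3.58.1 and DESeq2 1.42.0 gave alternatives. The code was tested on simulated counts. The genes, lists and motifs were chosen with earlier results of these data known. Named genes are the 7 genes, genes overlapping them, up to 3 of each list by lowest p, and the 3 nearest profiles to Txnip from genes averaging at least 3 in log2 CPM. Txn1, Slc2a1, Mlx, Malat1, Fap, Cdh5, Col3a1, Mitf and Csf1r were named after their values were seen. So were Neat1, Gas5, Kcnq1ot1, Tug1, Pecam1, Tek, mt-Co2, mt-Co3, mt-Atp6 and mt-Atp8. No library pair agreed within sampling noise: the lowest chi-square per degree of freedom was 6.35, for the pBABE pair. Within caMNK it was 22.3 for replicates 1 and 2, 9.00 for replicates 1 and 3, and 49.1 for replicates 2 and 3. Between the groups it ran from 32.1 to 58.9, so caMNK replicates 2 and 3 differed as much as some pairs of unlike groups.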

Additional observations from a re-analysis of the deposited data

How the results depend on the processing

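Total-count scaling moved the median log2 fold change of all genes to 0.05 and the share of calls that were higher to 68.2%, against 55.7% with TMM, with 999 higher and 465 lower. With genes that share reads left out, Txnip is not fitted and 1 of the 7 genes was called. All genes called higher and lower numbered 943 and 770 with DESeq2, 1591 and 1330 without a filter, and 412 and 305 with read-sharing genes left out. Among list genes, 7 were called higher with total-count scaling, 6 higher and 15 lower with DESeq2, 7 higher and 21 lower without a filter, and 3 lower without genes that share reads. With a replicate block, 1477 genes were called higher and 1231 lower, with 10 list genes higher and 15 lower, and Prdx1 was not called. The correlations of deviations within the 2 pairs of libraries with the same replicate number were -0.05 and -0.03. They cannot show whether such libraries shared a culture or batch, since pBABE has only 2 libraries. With each library left out in turn, the lowest and highest numbers were 11 and 2325 genes higher, 12 and 2617 lower, 0 and 3 of the 7 genes higher, and 0 and 19 list genes higher and 0 and 29 lower. The log2 fold changes ran between 1.62 and 2.28 for Txnip, 0.51 and 0.59 for Arrdc3, -0.07 and 0.30 for Arrdc1, -0.01 and 0.30 for Arrdc2, and -0.22 and -0.07 for Mlxip, and in the 3 fits that kept Arrdc4 between 2.45 and 6.82. The 6.82 is set by the prior count and is no bound, since the only pBABE library left there had 0 counts. The fewest calls came without either pBABE library and the most without caMNK replicate 2, and the cause was not tested. Depth limits Arrdc4 and Mlxipl, at 18 counts or fewer in a library.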
